A study of Mus musculus with 6 samples.

Results

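The 10 mast cell genes Cma1, Mcpt4, Tpsb2, Tpsab1, Cpa3, Kit, Ms4a2, Fcer1a, Hdc and Il1rl1 were followed in RNA sequencing of mouse oesophageal squamous cell carcinomas. They were taken by symbol from a list of genes that mast cells are known for, not from their values, and all 10 were found among 41253 gene symbols. The study used C57BL/6 mice that drank the carcinogen 4NQO, labelled as 100 mg/mL, for 16 weeks starting at week 6. Tumours were collected 12 weeks later, or earlier after marked weight loss. One group of 3 libraries was labelled wild type (titled WT) and the other, also of 3, Ptpro-/- (titled Ptpro-KO), both from mice on the same carcinogen. The design text gives an age of 34 weeks, while an age tag gives week 6. The labels do not say which exons of Ptpro, a receptor-type tyrosine phosphatase gene, are missing, or in which cells.

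Mast cells are long-lived granulated cells of connective tissue and mucosa. Stem cell factor acting on the receptor tyrosine kinase KIT keeps them alive, and IgE bound to the high-affinity receptor FceRI triggers release of histamine and proteases. In mice, chymases, tryptases and carboxypeptidase A3 fill the granules of connective tissue mast cells, and the chymases Mcpt1 and Mcpt2 mark mucosal mast cells.

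The 6 libraries held 25745240 to 39827467 reads. Ptpro went against the labels: it stood at 5.05, 0.359 and 2.39 CPM (counts per 1e+06 reads, after scaling between libraries) under the WT label, against 30.3, 42.8 and 50.6 CPM under the Ptpro-KO label. Directions are therefore given between the libraries as labelled. Squamous epithelium markers summed to 42890 to 51760 CPM under the WT label and 14940 to 21710 CPM under the Ptpro-KO label. Skeletal muscle markers summed to 54.0 and 75.4 CPM in WT replicate 2 and Ptpro-KO replicate 3, and to 5019 to 12080 CPM in the other 4 libraries. Thyroid markers reached 783 CPM in Ptpro-KO replicate 2 against at most 29.0 CPM elsewhere, and stomach markers 15370 CPM in Ptpro-KO replicate 3 against at most 21.3 CPM elsewhere. In bulk tissue, fewer mast cells and less RNA per mast cell cannot be told apart.

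None of the granule proteases differed between the labels beyond the spread among libraries. Of the 10 mast cell genes 0 passed the edgeR quasi-likelihood test at an adjusted p under 0.05, against 4.10% of the 17663 genes tested. At an unadjusted p under 0.05 there was 1 of 10, Kit, against 25.0% of all genes, and with DESeq2, a second count test, 1 of 10 had an adjusted p under 0.05, again Kit, against 17.8%. Fold changes were positive for 8 members and negative for 2, with a median log2 fold change of 0.32 beside 0.03 for all genes tested. Kit alone lay higher in all 3 libraries under the Ptpro-KO label, and Ms4a2 alone lay lower in all 3. That was 2 of 10 without overlap, against 32.5% of all genes tested (16.8% higher and 15.7% lower). All 10 members passed the count filter, with at least 12 reads each in every library. The precision was limited. In simulated counts with the spread of these libraries the same test called 1 of 100 genes set to change 2-fold. It called 61 of 100 set to change 4-fold. Those genes were drawn at random, while the proteases spread more widely than 86.4% to 90.2% of genes tested. Recovery for the members themselves was not simulated.

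**Figure D1:**
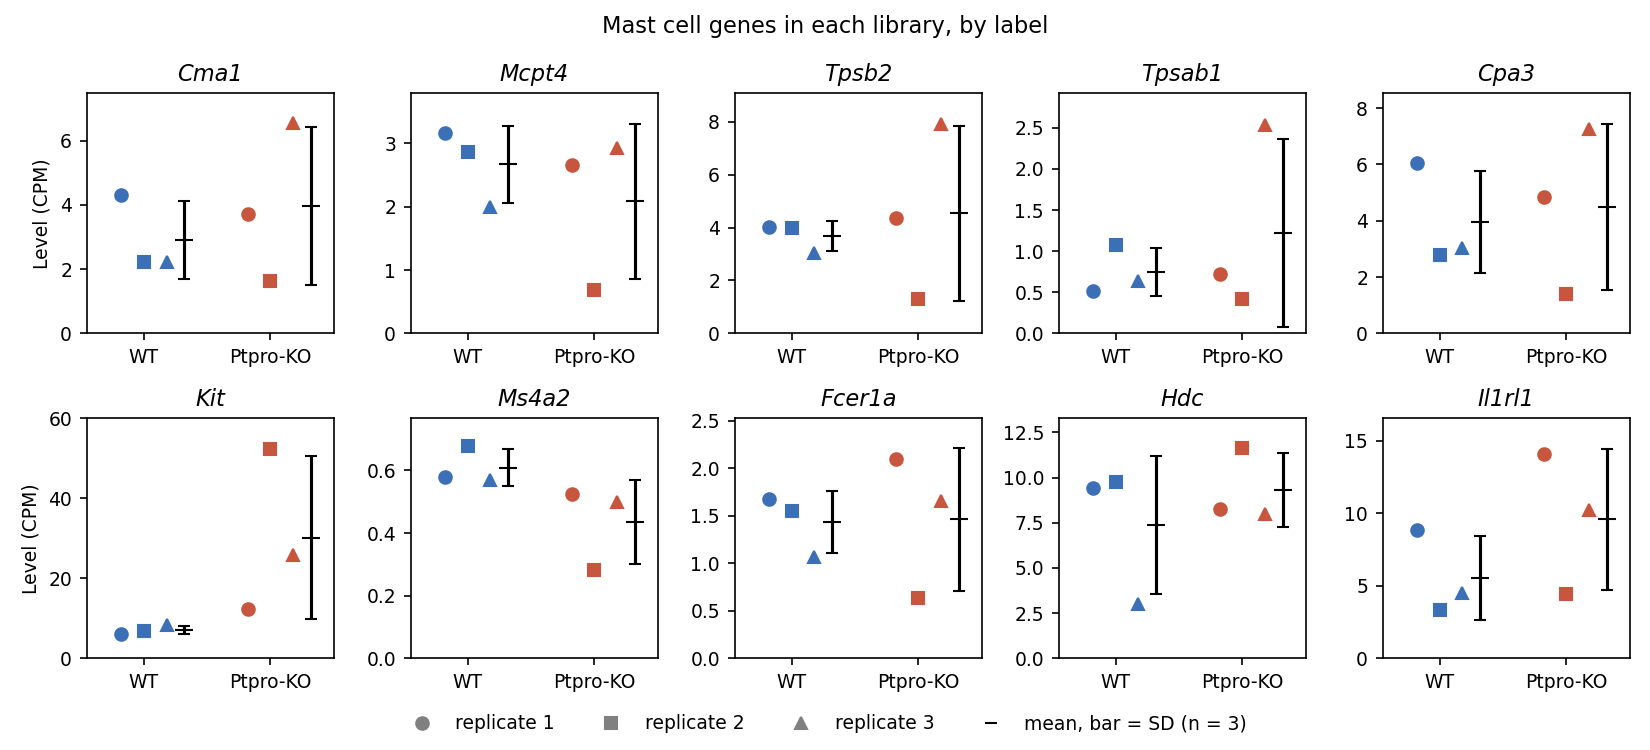
Each panel plots the level of a mast cell gene in CPM for the 3 libraries labelled WT (blue) and the 3 labelled Ptpro-KO (red), with the mean and SD (n = 3) beside them. The symbol marks the replicate number; Ptpro-KO replicate 2 (red square) is the lowest library for all 5 proteases and the highest for Kit.

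Sequences before the transcription starts are shown for Cpa3, Mcpt4 and Fcer1a, with like profiles over the libraries, and for Kit, with an unlike one. Cma1, whose profile was also like that of the other proteases, is not shown and held none of the letters searched. RefSeq windows of GRCm38.p6 were matched for 8 of the 10 members, and Tpsb2 and Tpsab1 were not among them. The 250 bases before each start were searched on both strands for AGATAA and GATAAG, letters bound by GATA factors, which overlap in AGATAAG, and for TCATGTG and CACGTG, letters bound by MITF. GATA and MITF factors are known regulators of mast cell genes. In the lines below, capitals mark these matches or their reverse complements. Cpa3 lies at chr3:20242182-20242431, Mcpt4 at chr14:56062311-56062560, Fcer1a at chr1:173227230-173227479 (all minus strand) and Kit at chr5:75574737-75574986 (plus strand), each read 5′ to 3′ on the gene's strand.
Cpa3: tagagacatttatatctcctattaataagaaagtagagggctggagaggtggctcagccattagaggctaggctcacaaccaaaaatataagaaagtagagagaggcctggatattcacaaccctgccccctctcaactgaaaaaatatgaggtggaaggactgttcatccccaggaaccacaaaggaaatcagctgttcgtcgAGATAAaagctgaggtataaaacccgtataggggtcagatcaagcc
Mcpt4: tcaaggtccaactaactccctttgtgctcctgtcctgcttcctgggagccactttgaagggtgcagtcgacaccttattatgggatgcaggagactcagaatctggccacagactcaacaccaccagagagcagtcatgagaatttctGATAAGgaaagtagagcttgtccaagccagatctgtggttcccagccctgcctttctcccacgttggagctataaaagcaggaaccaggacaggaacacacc
Fcer1a: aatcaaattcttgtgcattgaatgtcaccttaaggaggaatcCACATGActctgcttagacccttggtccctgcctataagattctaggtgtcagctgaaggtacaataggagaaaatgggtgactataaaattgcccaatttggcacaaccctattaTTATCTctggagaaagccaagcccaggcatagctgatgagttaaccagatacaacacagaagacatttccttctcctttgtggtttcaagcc
Kit: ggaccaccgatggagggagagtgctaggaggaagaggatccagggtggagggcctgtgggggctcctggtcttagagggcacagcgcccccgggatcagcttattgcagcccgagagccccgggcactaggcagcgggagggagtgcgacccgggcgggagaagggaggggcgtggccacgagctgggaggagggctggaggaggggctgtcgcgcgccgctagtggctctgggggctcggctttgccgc
AGATAA begins 46 bases before the Cpa3 start and GATAAG 102 bases before the Mcpt4 start. Fcer1a holds the reverse complement of AGATAA, beginning 92 bases before its start, and that of TCATGTG 208 bases before it. A GATA-type match was found in windows of 5 members (Cpa3, Fcer1a, Il1rl1, Mcpt4 and Ms4a2) and in 13.37% of the 32851 windows of all genes. TCATGTG was found in 1 member and 3.25% of windows, and CACGTG in 0 members and 6.02% of windows. Cma1, Hdc and Kit held none of these letters in this window. These are matches of letters, with no measure of binding.

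Chymases are serine proteases of the granule. Cma1, the chymase of connective tissue mast cells (chromosome 14, 55941451 to 55944675 of GRCm38, minus strand), stood at 4.32, 2.23 and 2.21 CPM under the WT label and 3.71, 1.64 and 6.54 CPM under the Ptpro-KO label. The means were 2.92 ± 1.21 and 3.96 ± 2.46 CPM (SD, n = 3 each), and both the lowest and the highest library carried the label Ptpro-KO. The log2 fold change was 0.44 (SE 0.56, edgeR adjusted p = 0.675), with a 95% interval from 0.525-fold to 3.49-fold, and it turned to -0.13 without Ptpro-KO replicate 3. Mcpt4, another chymase of connective tissue mast cells on the same chromosome (56059629 to 56062313, minus strand), stood at 3.16, 2.87 and 1.99 CPM against 2.66, 0.680 and 2.93 CPM. Its values overlapped, with Ptpro-KO replicate 2 well under the other 5 libraries. The log2 fold change was -0.36 (SE 0.56, edgeR adjusted p = 0.735), and 0.048 without that library. Reads of Cma1 per read of Mcpt4 were 0.778 to 1.37 under the WT label and 1.40, 2.41 and 2.23 under the Ptpro-KO label, so the chymases did not keep to a single ratio.

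The tryptases are the other serine proteases of the granule, encoded by neighbours on chromosome 17. Tpsb2 (25366305 to 25369098, plus strand) stood at 4.03, 3.99 and 3.03 CPM under the WT label and 4.37, 1.31 and 7.91 CPM under the Ptpro-KO label. The libraries labelled WT lay close together, within the range of the others. The log2 fold change was 0.30 (SE 0.61, edgeR adjusted p = 0.804), and -0.38 without Ptpro-KO replicate 3. Tpsab1 (25343245 to 25345562, minus strand) was read less often, at 18, 27 and 18 reads and 26, 18 and 96 reads. In CPM these were 0.522, 1.08 and 0.641 against 0.720, 0.422 and 2.53. A single library, Ptpro-KO replicate 3, stood above the rest, and without it the log2 fold change of 0.72 (SE 0.72, edgeR adjusted p = 0.586) became -0.38. The transcripts of the tryptases shared 0 identical stretches of 50 bases with another gene. Near-identical stretches were not counted, so whether reads placed with mismatches were told apart was not tested. Of the identical stretches of 50 bases, 5.46% of Cma1, 5.48% of Mcpt4 (shared with Cma2 and Mcpt9) and 2.1% of Ms4a2 occur in another gene. Those 3 are uncertain at least to that extent.

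Cpa3, the carboxypeptidase stored with the chymases (chromosome 3, 20215620 to 20242181, minus strand), repeated the pattern of the chymases. It stood at 6.06, 2.79 and 3.03 CPM against 4.84, 1.38 and 7.25 CPM, with means of 3.96 ± 1.82 and 4.49 ± 2.95 CPM (SD, n = 3 each). The groups overlapped throughout, and the log2 fold change was 0.18 (SE 0.64, edgeR adjusted p = 0.891), with a 95% interval from 0.385-fold to 3.33-fold. Without Ptpro-KO replicate 3 it was -0.35 and without WT replicate 2 it was -0.026. Taken as a sum, the 5 proteases stood at 18.1, 13.0 and 10.9 CPM under the WT label and 16.3, 5.44 and 27.2 CPM under the Ptpro-KO label. The lowest and the highest sums of all 6 libraries thus carried the same label. Ptpro-KO replicate 2, the lowest, was the library with thyroid transcripts, and Ptpro-KO replicate 3, the highest, was the one with stomach transcripts; their part in these levels was not tested.

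**Figure D2:**
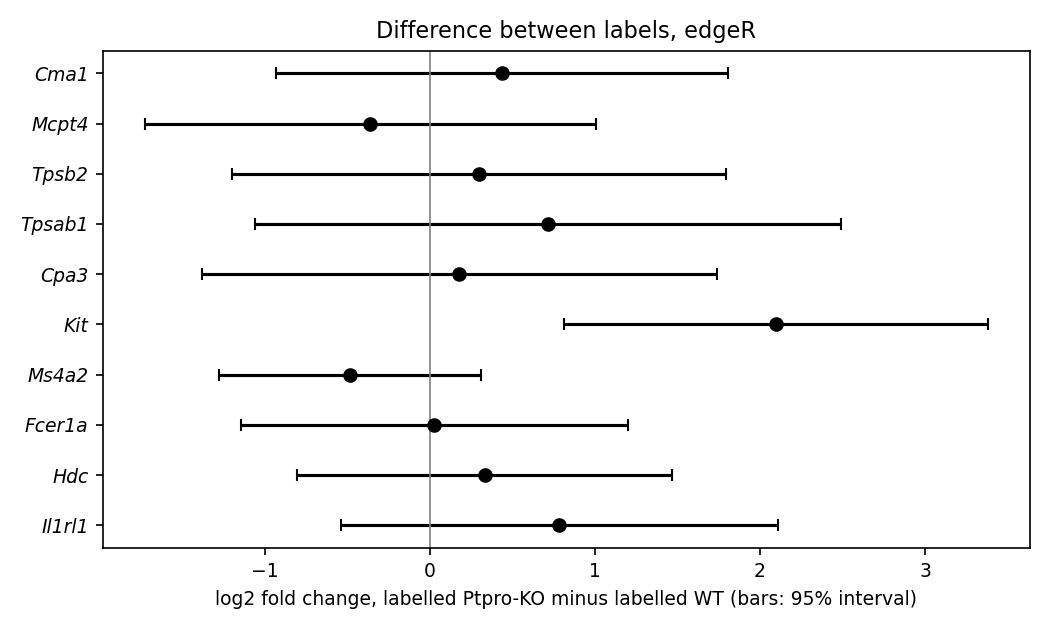
Points give the log2 fold change of each mast cell gene, Ptpro-KO label minus WT label (edgeR), and bars the 95% interval. The interval of Kit, from 0.81 to 3.38, lies above 0, and those of the other 9 genes span 0.

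Of the IgE receptor chains, the members Fcer1a and Ms4a2 did not pass the test between the labels. Fcer1a, the chain that binds IgE (chromosome 1, 173221284 to 173227214, minus strand), stood at 1.68, 1.55 and 1.07 CPM against 2.10, 0.633 and 1.66 CPM. Its mean was 1.44 ± 0.324 and 1.47 ± 0.754 CPM (SD, n = 3 each), and the log2 fold change was 0.027 (SE 0.48, edgeR adjusted p = 0.980) with a 95% interval from 0.453-fold to 2.29-fold. Ms4a2, the beta chain that amplifies the signal (chromosome 19, 11615523 to 11623719, minus strand), had 12 to 20 reads per library. It stood at 0.580, 0.678 and 0.570 CPM under the WT label and 0.526, 0.282 and 0.501 CPM under the Ptpro-KO label, with no overlap. The difference was small beside its error, a log2 fold change of -0.48 (SE 0.32, edgeR adjusted p = 0.411). By an exact two-sided permutation test p was 0.1, the lowest possible with 3 libraries in each group. The gamma chain gene Fcer1g, which macrophages and other myeloid cells share, followed neither: it stood at 9.51, 3.23 and 4.17 CPM against 25.5, 19.1 and 14.4 CPM without overlap (log2 fold change 1.80, SE 0.47, edgeR adjusted p = 0.0886, DESeq2 adjusted p = 0.0023). Macrophage markers summed to 122 to 588 CPM and 927 to 1714 CPM in the same libraries; their part in the Fcer1g values was not tested.

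Kit stood apart from the other members. Kit, the receptor for stem cell factor (chromosome 5, 75574916 to 75656722, plus strand), stood at 6.09, 6.86 and 8.22 CPM under the WT label and 12.3, 52.2 and 25.9 CPM under the Ptpro-KO label. Its means were 7.06 ± 1.08 and 30.2 ± 20.3 CPM (SD, n = 3 each), with all 3 libraries labelled Ptpro-KO above all 3 labelled WT. The log2 fold change was 2.10 (SE 0.52), a 4.28-fold difference with a 95% interval from 1.76-fold to 10.4-fold. The edgeR adjusted p of 0.0828 missed the threshold, and DESeq2 gave an adjusted p of 0.00088; over all alternatives it ranged from 0.00088 to 0.237. Without Ptpro-KO replicate 2, the highest library, the log2 fold change was 1.42 (edgeR adjusted p = 0.111). On the deposited FPKM table, which is relative to gene length, Kit read 1.66 ± 0.261 against 7.15 ± 4.89 FPKM (SD, n = 3 each).

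The library with most Kit had the least protease. Reads of Kit per read of the 5 proteases were 0.337, 0.529 and 0.755 under the WT label and 0.756, 9.60 and 0.954 under the Ptpro-KO label. Ptpro-KO replicate 2 thus stood above the other 5 libraries by this ratio. Of the reads of Kit, 98.8% were listed under a single transcript, and 0 stretches of 50 bases were shared with another gene. Kit is also made by melanocytes, by interstitial cells of Cajal, the pacemaker cells of gut muscle, and by some gland epithelia. The 6 melanocyte markers summed to 33.4 to 38.3 CPM and 34.1 to 38.4 CPM, with Tyr at 32.5 to 37.5 CPM, Pmel at up to 1.61 CPM, Sox10 at up to 0.775 CPM and Dct, Tyrp1 and Mlana at no more than 0.178 CPM in any library. The part of melanocytes in the Kit level was not tested. The 7 markers of interstitial cells of Cajal and smooth muscle summed to 164 to 1289 CPM and 1008 to 3232 CPM. In Ptpro-KO replicate 2 most of this sum was Des (846 CPM), which skeletal muscle also makes, while the smooth muscle genes Myh11 (14.2 CPM), Actg2 (4.13 CPM) and Cnn1 (0.868 CPM) were at their lowest of the 6 libraries there. The channel gene Ano1 and the factor gene Etv1, both markers of interstitial cells of Cajal, stood higher in all 3 libraries under the Ptpro-KO label. Etv1 was at 1.65, 1.12 and 1.21 CPM against 5.20, 2.06 and 8.43 CPM (log2 fold change 1.97, edgeR adjusted p = 0.0974), and Ano1 at 86.2, 106 and 103 CPM against 234, 112 and 197 CPM (0.87, adjusted p = 0.128). Both were lowest among the libraries under the Ptpro-KO label in replicate 2, where Kit was highest, and the part of such cells in the Kit level was not tested. Thyroid markers were highest in that library (783 CPM), and their part in the Kit level was not tested.

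**Figure D3:**
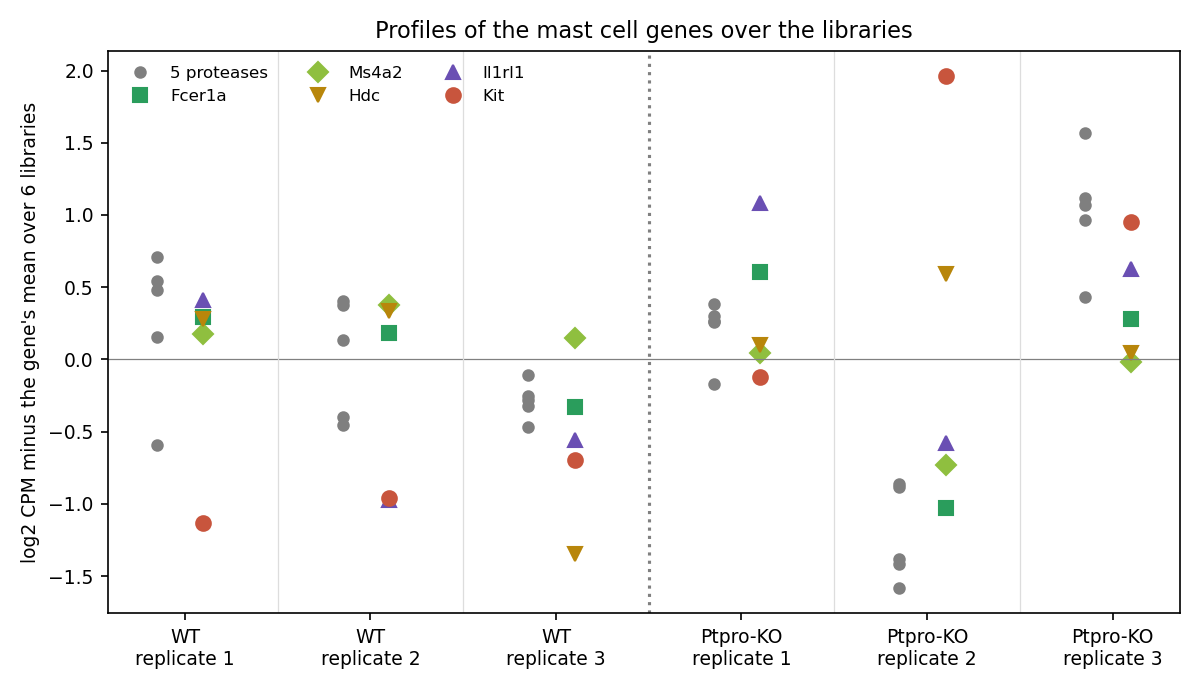
Levels are drawn as log2 CPM minus each gene's mean over the 6 libraries, with the 5 proteases in grey and the other members in colour; the dotted line divides the labels. In Ptpro-KO replicate 2 the proteases lie between -1.58 and -0.86 and Kit at 1.96.

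Hdc followed neither Kit nor the proteases closely. In its profile over the libraries, Il1rl1 was unlike Kit and nearer to Cma1 and Cpa3 than to Mcpt4 or the tryptases. Hdc, histidine decarboxylase, makes histamine in mast cells, basophils and the enterochromaffin-like cells of the stomach (chromosome 2, 126593667 to 126619299, minus strand). It stood at 9.40, 9.72 and 2.99 CPM under the WT label and 8.25, 11.6 and 7.96 CPM under the Ptpro-KO label. A single low library, WT replicate 3, set its spread, and the log2 fold change of 0.33 (SE 0.47, edgeR adjusted p = 0.702) became -0.049 without it. Hdc was highest in Ptpro-KO replicate 2, where the proteases were lowest, and reads of Hdc per protease read were 2.14 there against 0.275 to 0.751 in the other 5 libraries. In Ptpro-KO replicate 3 the endocrine gene Chga reached 73.0 CPM and Ghrl 170 CPM, and Hdc was at 7.96 CPM. The part of stomach endocrine cells in the Hdc level was not tested.

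Il1rl1 encodes ST2, the receptor of the alarmin IL-33 (chromosome 1, 40429570 to 40465415, plus strand). It stood at 8.82, 3.35 and 4.49 CPM against 14.1, 4.41 and 10.3 CPM. The groups overlapped, with means of 5.55 ± 2.89 and 9.58 ± 4.87 CPM (SD, n = 3 each), and the log2 fold change was 0.79 (SE 0.54, edgeR adjusted p = 0.419). The 95% interval ran from 0.689-fold to 4.31-fold. ST2 occurs as a membrane receptor and as a shorter soluble decoy. The deposited counts list 1.19% to 14.8% of Il1rl1 reads under the WT label, and 6.17% to 10.6% under the Ptpro-KO label, under the transcripts with the shorter coding region (1011 against 1701 bases). The exact binomial 95% interval was 0.0301% to 6.46% in WT replicate 2, on 84 reads, and 6.62% to 16.0% in Ptpro-KO replicate 2, on 188 reads; these cover counting error only. The sources used here do not say how reads shared by both forms were assigned, so the shares describe the listing rather than the forms. Il1rl1 is also carried by regulatory T cells and group 2 innate lymphoid cells, whose 10 listed markers summed to 163 to 197 CPM under the WT label and 90.1 to 126 CPM under the Ptpro-KO label. Much of this sum was Rora, at 133, 88.0 and 107 CPM against 70.9, 59.9 and 31.5 CPM. Of the 7 markers tested, 4 had positive and 3 negative log2 fold changes. The defining genes Foxp3 and Gata3 were at 0.279 to 1.47 CPM and 0.328 to 2.46 CPM. Their log2 fold changes were positive, at 0.49 and 0.81 (edgeR adjusted p = 0.722 and 0.549). The part of those cells in the Il1rl1 level was not tested.

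The members were compared with each other by the root-mean-square distance between their centred log2 CPM over the 6 libraries. Tpsb2 lay nearest to the mean of the 5 proteases (0.113), then Cma1 (0.266), Cpa3 (0.267), Mcpt4 (0.355) and Tpsab1 (0.486). Of the others, Fcer1a (0.364) and Ms4a2 (0.531) lay about as near as the proteases, Il1rl1 (0.633) and Hdc (0.958) farther, and Kit (1.49) farthest. Taken singly, Il1rl1 was 0.455 from Cma1 and 0.537 from Cpa3, but 0.793 from Mcpt4, 0.707 from Tpsb2 and 0.948 from Tpsab1. Since each protease is part of that mean, the distance to the mean of the other 4 was also taken. Of 12500 other genes with a mean log2 CPM of at least 1 and a named symbol, 0 lay as near to it as Tpsb2, 22 as near as Cma1, 38 as near as Cpa3, 168 as near as Mcpt4 and 1220 as near as Tpsab1. By the distance to the mean of all 5, 53 lay as near as Fcer1a, 623 as near as Ms4a2 and 2326 as near as Il1rl1. For Hdc there were 10293 and for Kit 11924. Tpsab1 lay at 0.607 from the mean of the other 4 proteases, little nearer than Il1rl1 to the mean of all 5 (0.633). The 5 genes nearest to the protease mean outside all lists were Hyou1 (0.197), Amigo3 (0.210), Sprr2a2 (0.217), Atf5 and Ulbp1 (both 0.233). With 6 libraries such likeness is a description only. Within labels, the SD of log2 CPM was 0.79 to 0.96 for the proteases, wider than in 86.4% to 90.2% of genes tested, against 0.32 for Ms4a2.

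Levels between genes were compared on the FPKM table. By the mean over the 6 libraries, Tpsb2 stood highest (5.11 FPKM), followed by Kit (4.40), Cpa3 (3.96), Cma1 (3.91), Hdc (3.66), Mcpt4 (3.01), Fcer1a (2.23), Il1rl1 (1.60), Tpsab1 (0.799) and Ms4a2 (0.240). Each pair of neighbours in this order differed by less than the larger of their SDs over the 6 libraries. Without Kit's high libraries the order differed: under the WT label, Kit read 1.66 ± 0.261 FPKM, under Mcpt4 at 3.35 ± 0.835 FPKM (SD, n = 3 each).

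Other mast cell pathway genes were taken from 6 lists of 78 genes grouped by role, of which 60 were tested. Of these, 3 rose and 0 fell by edgeR, against 1.81% (higher) and 2.29% (lower) of all genes. The groups did not overlap in 26 that were higher and 2 that were lower, against 16.8% and 15.7% of all genes tested. The median log2 fold change was 0.61. The IgE receptor signalling and receptor list held 2 of the 3. Gab2, an adaptor below FceRI and KIT, was at 11.2 ± 3.54 CPM and rose to 35.5 ± 6.28 CPM (SD, n = 3 per label; log2 fold change 1.66, SE 0.27, edgeR adjusted p = 0.0355). Cd33, a sialic acid receptor of myeloid cells, rose from 4.09 ± 1.47 to 19.6 ± 7.89 CPM (2.26, SE 0.42, adjusted p = 0.0463). Crlf2, a chain of the TSLP receptor, rose from 5.53 ± 1.02 to 11.4 ± 0.730 CPM (1.05, SE 0.20, adjusted p = 0.0470). All of Gab2, Cd33 and Crlf2 are also expressed by macrophages or dendritic cells, and summed macrophage markers did not overlap between the labels; the part of those cells was not tested. Leaving out any 1 library ended the call of Crlf2 (adjusted p = 0.0715 to 0.174). Gab2 kept its call only without WT replicate 1 (adjusted p = 0.0495) and Cd33 only without Ptpro-KO replicate 3 (0.0386). Without WT replicate 2, WT replicate 3, Ptpro-KO replicate 1 or Ptpro-KO replicate 2, edgeR called 0 of the pathway genes. At an unadjusted p under 0.05 there were 25, 20, 22 and 31 of 65, 65, 61 and 63 tested. In the same order, edgeR called 0, 0, 93 and 0 of all genes. At an unadjusted p under 0.05 these were 3369, 3078, 3621 and 4363 of 18353, 18323, 18004 and 18155 tested. With the replicate number as a block, 7 pathway genes were called, but Gab2 (adjusted p = 0.0515) and Crlf2 (0.0891) were not. DESeq2 called 23 of the 60 higher and 1 lower, against 9.52% and 8.32% of all genes.

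**Figure D4:**
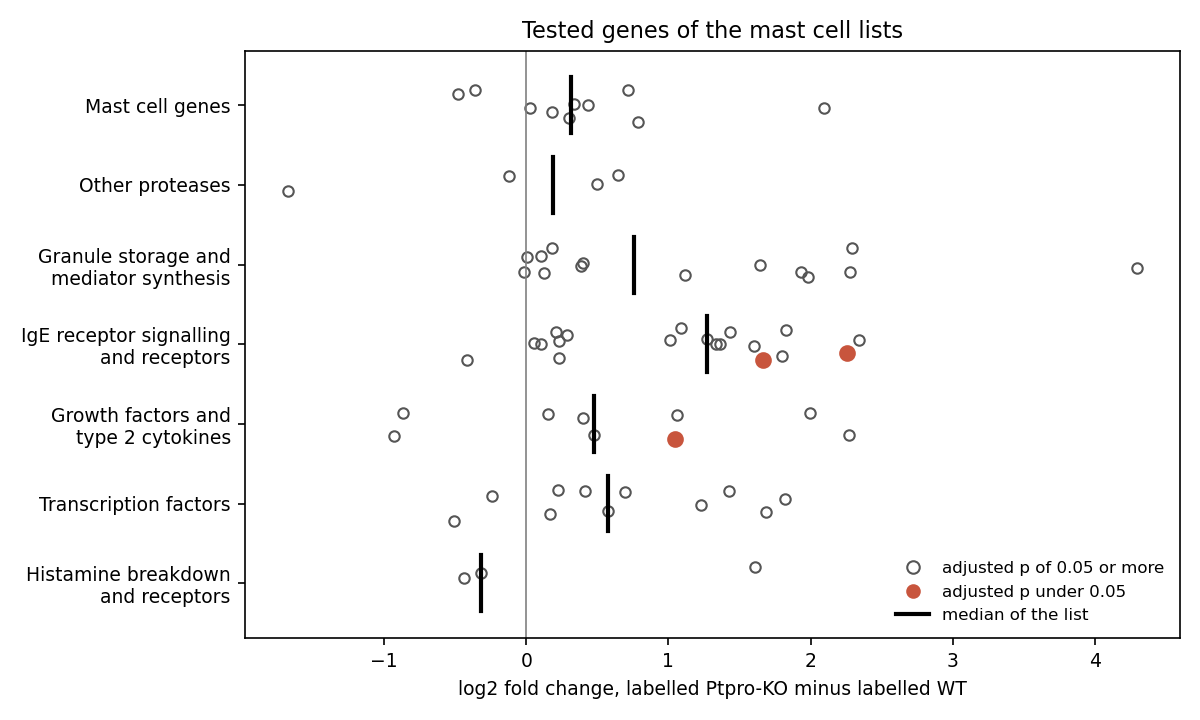
Each point is a tested gene of a mast cell list, placed by its log2 fold change (labelled Ptpro-KO minus labelled WT); points are spread vertically only to keep them apart. Filled points passed the edgeR test (Gab2, Cd33 and Crlf2), and black bars give list medians, 0.32 for the mast cell genes and 1.27 for IgE receptor signalling.

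Of 9 other granule proteases listed, 4 were tested and 0 passed edgeR or DESeq2 (0 also at an unadjusted p under 0.05). The shares of all genes tested were 4.10% (edgeR), 17.8% (DESeq2) and 25.0% (unadjusted). Mcpt1, a chymase of mucosal mast cells, stood at 7.92, 21.3 and 7.01 CPM against 14.9, 5.44 and 12.9 CPM, and Mcpt2 at 3.83, 11.8 and 3.74 CPM against 7.69, 2.28 and 17.4 CPM. Both mucosal chymases were lowest in Ptpro-KO replicate 2, as were the 5 protease members. Of the 4, 1 was without overlap, against 32.5% of all genes tested: Gzmb, granzyme B, which cytotoxic lymphocytes also make. Gzmb was at 0.754, 0.837 and 0.392 CPM against 1.33, 0.892 and 0.896 CPM (edgeR adjusted p = 0.339). Cma2 had its highest value, 3.19 CPM, in WT replicate 2. The basophil proteases Mcpt8 and Prss34 were at most 0.194 and 0.111 CPM.

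Of 14 genes of granule storage and mediator synthesis, 0 passed edgeR (6 at an unadjusted p under 0.05, 4 with DESeq2), against 25.0% (unadjusted) and 17.8% (DESeq2) of all genes. Of the 14, 13 had positive fold changes, as did 9408 of all 17663 genes. Srgn, the proteoglycan core that holds proteases in the granule and is made by many blood cells, stood at 26.6, 18.4 and 10.1 CPM against 117, 102 and 48.1 CPM (log2 fold change 2.28, SE 0.47, edgeR adjusted p = 0.0590). The leukotriene genes Alox5, Alox5ap and Ltc4s had log2 fold changes of 1.93, 1.64 and 2.30 (edgeR adjusted p = 0.140, 0.123 and 0.116). All 3 lay higher under the Ptpro-KO label without overlap. In the list as a whole, 6 of 14 lay higher without overlap and 0 lower, against 16.8% and 15.7% of all genes tested. The leukotriene enzymes serve other myeloid cells too, and the part of macrophages was not tested. Ctsd and Rab27b, the most abundant of the list, had log2 fold changes of -0.013 and 0.18.

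Among growth factors, Kitl, which encodes stem cell factor, stood at 25.6, 43.4 and 45.4 CPM against 38.9, 137 and 62.2 CPM (log2 fold change 1.06, edgeR adjusted p = 0.253). Its highest value was in Ptpro-KO replicate 2, as was that of Kit. Il33 stood at 133, 136 and 165 CPM against 145, 21.7 and 61.9 CPM (-0.93, adjusted p = 0.414). Il3, Il9 and Il25 had at most 0.0469 CPM in any library. Of 12 transcription factors 11 were tested and 0 passed edgeR (6 at an unadjusted p under 0.05), while DESeq2 called 5 higher and 1 lower. Of all genes tested, 4.10% passed edgeR and 25.0% had an unadjusted p under 0.05. DESeq2 called 9.52% of them higher and 8.32% lower. Gata2, needed for mast cell identity, stood at 2.47, 0.996 and 1.14 CPM against 2.27, 1.48 and 2.40 CPM (0.41, adjusted p = 0.602), and Mitf at 7.37, 1.99 and 5.73 CPM against 16.1, 12.5 and 12.1 CPM (1.43, adjusted p = 0.138). The most abundant of them, Bhlhe40, Runx1 and Cebpa, had log2 fold changes of 0.70, 1.23 and -0.51. Of 6 genes for histamine breakdown and its receptors, 3 were tested and 0 passed edgeR or DESeq2 (0 at an unadjusted p under 0.05): the methyltransferase gene Hnmt (-0.44), Hrh1 (-0.32) and Hrh2 (1.61).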

How the data were processed

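RNA from 6 tumours was sequenced, 3 per label, and each library was taken as 1 replicate. Bowtie 0.12.2 and mm10 are named, per the submitters' processing notes. The authors deposited, for each sample, read counts and RPKM per Ensembl transcript, and gene tables of FPKM values and of a scaled count signal, of which 2 further columns were not used. The rule for reads shared between genes is unknown. Counts were summed per symbol (41253 symbols, 100249 transcripts), filtered with filterByExpr and TMM scaled. The filter turns a minimum count of 10 into a CPM cutoff at the median library size. That cutoff had to be met in 3 libraries, with 15 reads in total. Tests used edgeR 4.0.16 (quasi-likelihood, R 4.3.3), Benjamini-Hochberg adjusted over 17663 genes at 0.05. Standard errors are the log2 fold change over the root of F, and log2 CPM has a prior count of 2. Gene positions are from GENCODE M21 (GRCm38, the assembly of mm10).

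The members and lists were chosen with earlier results of these data known. The rule named all members, list genes that passed, up to 3 abundant genes per list (of which the text gives some) and the 5 nearest genes. Fcer1g, Etv1, Srgn, Gata2, Mitf, Tph1, Gzmb, Actg2, Cnn1, Chga, Ghrl, Foxp3 and Gata3 fell outside it. So did Prg2, Ear1, Il5ra, Il4, Il13, the leukotriene genes and the genes at or near 0. All of these were picked with their values in view. Siglecf and Adgre1 were not found under these symbols. Pairs of libraries of 1 label differed beyond counting noise (chi-square over degrees of freedom 66.9 to 307). On simulated data of 17435 genes 2 unchanged genes were called. Alternatives were DESeq2 1.42.0, limma 3.58.1 (voom, or log2 FPKM with pseudocounts of 1 and 0.1), other scalings and filters, a replicate block and left-out libraries. Limma on log2 of the scaled signal was added after seeing the data.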

Additional observations from a re-analysis of the deposited data

How the results depend on the processing

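The count of 0 mast cell genes called held under 17 of 18 alternatives, and DESeq2 called 1 (Kit). Kit kept a positive log2 fold change throughout (1.42 to 2.44), as did Il1rl1 (0.37 to 1.28), and Ms4a2 a negative one. Library totals without scaling factors moved the median of all genes from 0.034 to 0.185 (log2) and changed the sign of 0 members; the split of all calls was 320 higher and 405 lower in the main fit and 630 and 294 with totals.

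Signs turned for 7 members. With limma-voom, the log2 fold change was -0.065 for Tpsb2, -0.082 for Cpa3 and -0.14 for Fcer1a. With limma on the scaled table it was -0.030, -0.029 and -0.12, and on log2(FPKM + 0.1) -0.064 for Tpsb2 and -0.11 for Fcer1a, which was -0.044 on log2(FPKM + 1). Without both replicate 1 libraries, Fcer1a was at -0.22. Leaving out 1 library at a time gave -0.13 to 0.83 for Cma1, -0.69 to 0.048 for Mcpt4, -0.38 to 0.72 for Tpsb2, -0.38 to 1.11 for Tpsab1, -0.35 to 0.62 for Cpa3, -0.36 to 0.38 for Fcer1a and -0.049 to 0.58 for Hdc. The cause was not tested.

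The labels pair no libraries. Deviations of same-numbered libraries correlated at 0.54 for replicate 1, whose deposited names share a prefix, 0.080 for replicate 2 and -0.24 for replicate 3, and 3 of 6 libraries correlated best with their own number. With the replicate block, Tpsb2 was at -0.0059, Cpa3 at -0.027 and Fcer1a at -0.082, 0 members, 237 of all genes and 7 pathway genes were called, of the 3 named ones Cd33 alone.

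Over all genes, 725 were called, 3152 with DESeq2, 0 without both replicate 1 libraries (2971 at an unadjusted p under 0.05) and 0 to 496 leaving out 1 library. Of the pathway genes 3 were called, 10 with library totals, 24 with DESeq2, 1 with no count filter, which adds genes to the adjustment, 0 without both replicate 1 libraries and 0 to 2 leaving out 1 library. Low reads limit Ms4a2 most, with 12 to 20 per library. The p-values set the difference between the labels against the spread among libraries of the same label, and cover these 6 libraries only.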

Other observations

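The listed genes of eosinophils, which often accompany mast cells, all stood highest in Ptpro-KO replicate 1 where they had reads. For Ear6 and Il5ra the margin was small, and Epx was near 0 in every library. Ear2, an eosinophil-associated ribonuclease also made by monocytes, stood at 50.9 CPM in Ptpro-KO replicate 1. It was at 0.516 and 4.67 CPM in the other libraries labelled Ptpro-KO and at most 0.580 CPM under the WT label. The eotaxin receptor gene Ccr3 was at 13.6, 0.680 and 8.83 CPM under the Ptpro-KO label and 2.73, 1.12 and 1.35 CPM under the WT label. Prg2, the major basic protein, was at 3.93, 0.422 and 2.58 CPM against 0.058, 0 and 0.142 CPM (log2 fold change 5.01, edgeR adjusted p = 0.0711), while the peroxidase gene Epx was at no more than 0.0277 CPM in any library. Il5ra was at 0.899, 0.757 and 1.21 CPM under the WT label against 1.22, 0.751 and 1.00 CPM, Ear6 at 8.55, 9.68 and 4.88 CPM against 11.5, 5.68 and 2.87 CPM, and Ear1 at 1.85 CPM in Ptpro-KO replicate 1 and at most 0.0399 CPM elsewhere. The type 2 cytokine genes Il4 and Il13 were at 0.720 and 0.581 CPM in Ptpro-KO replicate 1, 0.0235 and 0 CPM in replicate 2 and 0.422 and 0.290 CPM in replicate 3. The tryptophan hydroxylase gene Tph1, which starts serotonin synthesis in mast cells and enterochromaffin cells, was at 89.6 CPM in Ptpro-KO replicate 1 and at most 5.01 CPM in the other 5 libraries.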
